A study of Mus musculus with 10 samples.

Results

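The SLAM family is a set of receptors of the immunoglobulin superfamily on lymphocytes and myeloid cells, and SAP is the small adaptor protein that several of them use to signal. Of 19938 genes tested, 9 are described: the receptors Slamf1, Slamf6, Slamf7, Slamf8, Slamf9, Ly9, Cd48 and Cd84, and Sh2d1a, the gene of SAP. They were chosen by symbol. Each of the 9 had exactly 1 probe set assigned to it alone, so no choice between probe sets entered their values.

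RNA came from CD4-positive spleen cells of female mice 8 weeks old, taken with CD4 beads on an autoMACS magnetic sorter, and each sample was hybridised to 1 Affymetrix mouse gene array. The 4 groups were NOD T1 (2 arrays), NOD T0 (3 arrays), B10 T1 (2 arrays) and B10 T0 (3 arrays). The NOD mice carry the genotype label NODk, and the B10 mice the label B10Br. T1 cells received phorbol 12-myristate 13-acetate (PMA) at 10 ng/ml and ionomycin at 1 uM for 4 hours. PMA activates protein kinase C and ionomycin raises cell calcium, so the pair bypasses the T cell receptor and any SLAM receptor at the cell surface. T0 is labelled basal, yet the protocol leaves it unclear whether these cells were cultured without stimulus. The labels call the samples biological replicates without naming animals, so p-values measure the spread between these samples, which may be partly technical. Because whole populations were measured, fewer cells of a type and less RNA per cell cannot be told apart.

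Most SLAM receptors bind the same receptor on a neighbouring cell, while CD48, which is held in the membrane by a lipid anchor and has no signalling tail, is the ligand of 2B4 (Cd244a) and of CD2. The tails of Slamf1, Slamf6, Ly9 and Cd84 carry tyrosine motifs that bind SAP, and SAP brings in the kinase FYN. When SAP is lacking, the same motifs can recruit phosphatases such as SHP-1 (Ptpn6) and SHIP-1 (Inpp5d). In mice SAP is needed for follicular helper T cells to sustain germinal centres and for natural killer T cells to develop, and loss of the human gene causes X-linked lymphoproliferative disease. The genes of the main SLAM block differ in haplotype between inbred mouse strains.

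Levels are given as log2 intensity. The deposited values came from RMA, a method that corrects background, gives all arrays one distribution and combines the probes of a probe set. Array medians lay between 6.18 and 6.23. Pearson's r over all probe sets was 0.985 to 0.993 between arrays of one group and 0.943 to 0.984 between arrays of different groups. Averaged over the 10 arrays, Slamf8 stood at the 30.4th percentile of genes and Slamf9 at the 51.1st, and the other members between the 76.3rd and the 92.2nd. Detection calls were not used here, so a change in a gene as dim as Slamf8 may be understated. The number of arrays limits the precision of every value.

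The CD4 label was checked against markers of T cells and of other cells. Cd4 was bright, at 9.23 in NOD T1, 10.95 in NOD T0, 9.64 in B10 T1 and 11.09 in B10 T0, and none of the 7 CD4 T cell markers was called between the strains. Without NOD T1 replicate 2, however, 2 of the 7 were called lower in NOD at T1. With stimulation 4 of the 7 fell in each strain and 1 rose in NOD. By the calling rule given below, 19.5% of all genes fell in NOD and 18.1% in B10, and 3.44% were higher in NOD at T0. All 9 measured monocyte and macrophage markers fell in each strain, and 7 of them were higher in NOD at T0, a count of 3 without NOD T0 replicate 3 or B10 T0 replicate 1 and 5 to 8 in the other omissions of 1 array. Their summed linear intensity was 1413 to 1873 in NOD T1, against 5585 to 6938 in NOD T0, and 1212 to 1217 in B10 T1, against 3055 to 4022 in B10 T0. For 8 B cell markers, of which 6 fell in NOD and 5 in B10, the sum was 1539 to 1605 in NOD T1, against 3528 to 4338 in NOD T0, and 1747 to 1790 in B10 T1, against 2992 to 3583 in B10 T0. Among them Cr2 rose by 1.37 in B10 (adjusted p = 4.97e-05) and was 1.00 higher in NOD at T0 (adjusted p = 0.00333), and Cd79a was lower in NOD at T1 (-0.93, adjusted p = 0.00587). Of 8 neutrophil markers, 7 fell in NOD and 4 in B10, and 4 were higher in NOD at T0, a count of 2 to 5 on omission of an array. Of 8 dendritic cell markers, 5 fell and 1 rose in NOD, and 4 fell in B10. Of 5 megakaryocyte and platelet markers, 2 fell in each strain. At T0 1 of 2 CD8 T cell markers, Cd8b1, was lower in NOD (-0.49, adjusted p = 0.0305). Of 6 plasma cell markers, 1 was higher in NOD at T0, Jchain (0.98, adjusted p = 0.0194). Both counts were 0 to 1 on omission of an array. The 4 red cell precursor markers were all called higher in NOD at T0, but 0 were without B10 T0 replicate 1 and 1 without NOD T0 replicate 1, NOD T0 replicate 3 or B10 T0 replicate 2. Both B10 arrays of replicate 3 stood apart from the other B10 arrays, with sums of 3223 and 2998 beside 623 to 1145. SLAM receptors are also made by B cells and myeloid cells, and the part these cells had in the results below was not tested.

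The promoters of the members that responded most are given here for Slamf1 and Slamf7, which rose, and Slamf6, which fell. Each is the RefSeq window from 250 bases before to 50 bases after the gene's start (build GRCm38.p6), printed 5′ to 3′ on the gene's strand. Capitals mark matches, on either strand, to TGANTCA (an AP-1 motif), GGAAA (the core of an NFAT motif) or the NF-kB motif. AP-1, NFAT and NF-kB are factors that PMA and ionomycin activate in T cells. Slamf1 (chr1:171766882-171767181, plus strand), Slamf7 (chr1:171648950-171649249, minus strand) and Slamf6 (chr1:171917212-171917511, plus strand) read:
Slamf1: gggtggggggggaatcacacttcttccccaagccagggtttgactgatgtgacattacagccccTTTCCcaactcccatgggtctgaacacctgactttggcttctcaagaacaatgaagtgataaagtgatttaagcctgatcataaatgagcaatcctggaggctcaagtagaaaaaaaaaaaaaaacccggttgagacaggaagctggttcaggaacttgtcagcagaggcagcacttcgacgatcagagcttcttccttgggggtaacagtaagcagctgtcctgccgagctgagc
Slamf7: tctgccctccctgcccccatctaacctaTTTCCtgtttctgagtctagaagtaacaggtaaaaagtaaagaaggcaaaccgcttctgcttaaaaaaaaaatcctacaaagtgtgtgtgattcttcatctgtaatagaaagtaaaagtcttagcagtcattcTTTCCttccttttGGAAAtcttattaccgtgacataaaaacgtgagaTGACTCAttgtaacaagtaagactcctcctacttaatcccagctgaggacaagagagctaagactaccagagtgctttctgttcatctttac
Slamf6: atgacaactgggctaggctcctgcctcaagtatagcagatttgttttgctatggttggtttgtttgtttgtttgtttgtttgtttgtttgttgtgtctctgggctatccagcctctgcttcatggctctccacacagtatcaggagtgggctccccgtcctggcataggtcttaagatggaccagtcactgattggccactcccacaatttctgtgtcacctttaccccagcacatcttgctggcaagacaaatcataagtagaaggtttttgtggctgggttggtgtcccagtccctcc
The Slamf7 window held 1 AP-1 match, 42 bases before the start, and 3 NFAT matches. In the Slamf1 window there was 1 NFAT match and no other, and in the Slamf6 window no match to any of the 3 motifs. AP-1 matches occurred in 7.81% of 32851 RefSeq windows of this length, NFAT matches in 61.3% and NF-kB matches in 6.93%. The Slamf8 window held 1 match to each of the 3 motifs, with the NFAT match inside the NF-kB match. The Cd84 window held 1 AP-1 and 1 NFAT match, the Slamf9 window 2 NFAT matches and the Cd48 window 1, so 7 of the 9 members had a window to search. A match describes these letters only.

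**Figure D1:**
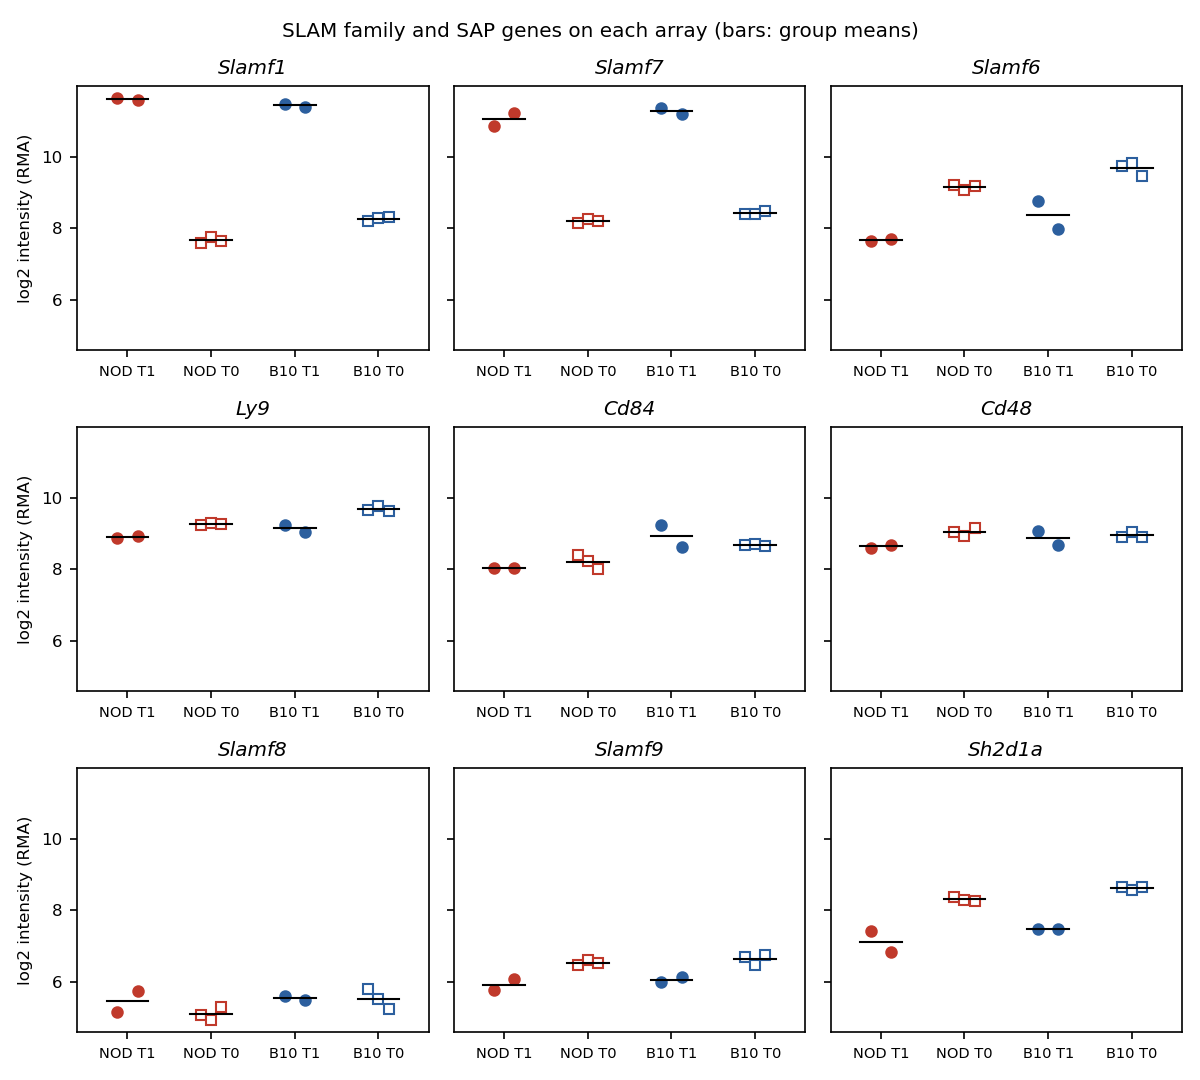
Log2 intensity (RMA) of each of the 9 genes on every array, with NOD in red, B10 in blue, filled circles for T1, open squares for T0 and black bars for group means. Slamf1 and Slamf7 are higher on every T1 array than on any T0 array, and Slamf6 and Sh2d1a are lower in T1 than in T0 within each strain. Heights of different genes are not comparable, because each probe set has its own response.

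The first comparison asked what 4 hours of PMA and ionomycin did to these genes in each strain. In NOD, 2 of the 9 rose and 5 fell, and in B10 2 rose and 4 fell. Slamf1 rose 15.3-fold in NOD and 8.96-fold in B10 and Slamf7 7.15-fold in NOD and 7.16-fold in B10, while Slamf6, Ly9, Slamf9 and the SAP gene fell in both strains and Cd48 fell in NOD. Calls are limma tests at an adjusted p below 0.05 over all 19938 genes. By that rule 16.1% of all genes rose and 19.5% fell in NOD, and 13.7% rose and 18.1% fell in B10, so changes were common. The median log2 change of the 9 members was -0.37 in NOD and -0.08 in B10, beside 0.08 and 0.03 over all genes.

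Slamf1 (CD150), a receptor that binds itself and is also an entry receptor for measles virus in humans, read 11.64 and 11.58 on the NOD T1 arrays, against 7.59, 7.76 and 7.66 at NOD T0. In B10 it read 11.48 and 11.38 at T1, against 8.20, 8.29 and 8.31 at T0. Every T1 array lay above every T0 array by a wide gap, and among T0 arrays all 3 of NOD lay below all 3 of B10. The rise was 3.94 ± 0.10 log2 units in NOD (15.3-fold, limma's SE, adjusted p = 1.44e-10) and 3.16 ± 0.10 in B10 (8.96-fold, adjusted p = 6.97e-10). Among all genes it ranked 12th by size of change in NOD and 43rd in B10.

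Slamf7 (CRACC), which signals through the SAP relative EAT-2 in natural killer cells, read 10.86 and 11.23 in NOD T1, against 8.17, 8.25 and 8.21 in NOD T0. In B10 it read 11.36 and 11.19 at T1, against 8.40, 8.41 and 8.50 at T0. T1 and T0 did not overlap, and the strains lay close together in each state. The change was 2.84 ± 0.12 in NOD (7.15-fold, adjusted p = 5.43e-09) and 2.84 ± 0.12 in B10 (7.16-fold, adjusted p = 5.32e-09). The NOD response minus the B10 response was -0.0029, with a 95% interval of -0.36 to 0.36.

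Slamf6 (Ly108), a SAP-binding receptor that is known for controlling contacts between follicular helper T cells and B cells, read 7.66 and 7.71 in NOD T1, against 9.22, 9.07 and 9.17 in NOD T0. In B10 it read 8.76 and 7.99 at T1, against 9.74, 9.82 and 9.48 at T0. Both T1 arrays lay below all T0 arrays of the same strain, though the B10 T1 arrays lay far apart (SD 0.54). The fall was -1.47 ± 0.18 in NOD (adjusted p = 2.9e-05) and -1.31 ± 0.18 in B10 (adjusted p = 7.61e-05).

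The SAP gene Sh2d1a, on the X chromosome, read 7.43 and 6.83 in NOD T1, against 8.38, 8.29 and 8.27 in NOD T0. In B10 it read 7.47 and 7.48 at T1, against 8.66, 8.58 and 8.66 at T0. All T1 arrays were below all T0 arrays, and NOD T1 replicate 3 was the lowest. The SAP gene fell by 1.18 ± 0.14 on the log2 scale in NOD (2.27-fold, adjusted p = 2.44e-05) and fell by 1.16 ± 0.14 in B10 (2.23-fold, adjusted p = 2.82e-05).

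Ly9 (CD229), another SAP-binding receptor, read 8.86 and 8.94 in NOD T1, against 9.25, 9.28 and 9.28 in NOD T0. B10 arrays read 9.25 and 9.04 at T1, against 9.65, 9.76 and 9.62 at T0. T1 lay below T0 in each strain, by gaps smaller than for Slamf6. The change was -0.37 ± 0.10 in NOD (adjusted p = 0.0102) and -0.53 ± 0.10 in B10 (adjusted p = 0.000808). The NOD call ended without NOD T1 replicate 2 (adjusted p = 0.0558) and with each array shifted to one 75th percentile (-0.24, adjusted p = 0.0931).

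Cd48, the ligand without a signalling tail, read 8.59 and 8.69 in NOD T1, against 9.04, 8.94 and 9.15 in NOD T0. In B10 it read 9.07 and 8.68 at T1, against 8.91, 9.05 and 8.91 at T0. The NOD states were apart, while the B10 T1 arrays lay above and below all B10 T0 arrays. The NOD change was -0.40 ± 0.12 (adjusted p = 0.0225). That call ended without NOD T1 replicate 2, NOD T0 replicate 1 or NOD T0 replicate 3 (adjusted p = 0.052 to 0.108) and with the 75th-percentile shift (-0.27, adjusted p = 0.106). In B10 the change was -0.08 (95% interval -0.35 to 0.19, adjusted p = 0.707), and the NOD response minus the B10 response was -0.32 (adjusted p = 0.611).

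Cd84, a SAP-binding receptor that binds itself, read 8.05 and 8.03 in NOD T1, against 8.39, 8.23 and 8.00 in NOD T0. B10 T1 arrays read 9.25 and 8.63, against 8.67, 8.71 and 8.67 in B10 T0. T1 and T0 overlapped in both strains, and the B10 T1 arrays were further apart than those of any other group. Its change was -0.17 in NOD (adjusted p = 0.45) and 0.26 in B10 (adjusted p = 0.286), and without B10 T1 replicate 3 the B10 change was 0.57 (adjusted p = 0.0118), while without B10 T1 replicate 2 it was -0.056 (adjusted p = 0.855).

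Slamf8 and Slamf9 lack the SAP-binding motif and lie outside the main block. Slamf9 ranged over 5.78 to 6.08 in NOD T1, against 6.49 to 6.61 in NOD T0, and up to 6.15 in B10 T1, against 6.48 to 6.75 in B10 T0. It was lower on all T1 arrays than on all T0 arrays, with changes of -0.62 ± 0.12 in NOD (adjusted p = 0.00123) and -0.57 ± 0.12 in B10 (adjusted p = 0.00224). Slamf8, a receptor best known in macrophages, ranged over 5.18 to 5.76 in NOD T1, against 4.94 to 5.32 in NOD T0, and over 5.51 to 5.61 in B10 T1, against 5.24 to 5.80 in B10 T0. Its states overlapped, with changes of 0.36 (adjusted p = 0.155) and 0.03 (adjusted p = 0.93), and without NOD T1 replicate 2 the NOD change was 0.65 (adjusted p = 0.025), while without NOD T1 replicate 3 it was 0.068 (adjusted p = 0.852).

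The calls for Slamf1, Slamf7, Slamf6 and Sh2d1a held in both strains under every alternative run, omission of each array included. With a minimum change of 1.5-fold as the hypothesis tested, those of Slamf9, Ly9 and Cd48 ended. Without both B10 arrays of replicate 3, which leaves 1 B10 T1 array, the B10 change of Cd84 was 0.56.

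**Figure D2:**
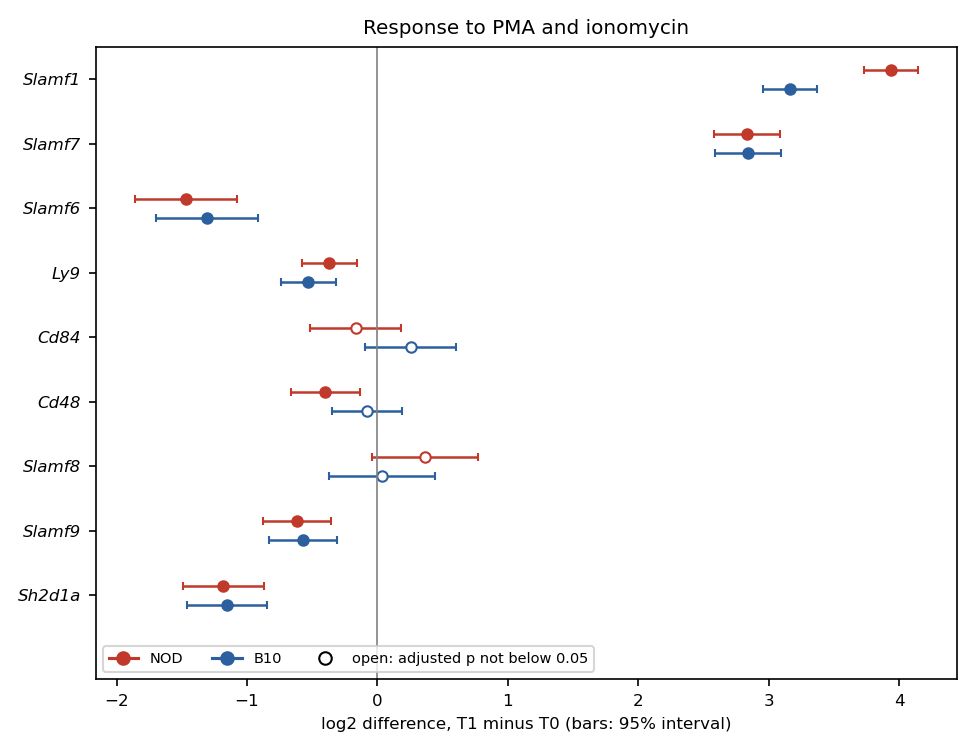
Log2 change with PMA and ionomycin (T1 minus T0) of each gene in NOD (red) and B10 (blue), with 95% intervals from limma. Filled points have an adjusted p below 0.05. The intervals of the strains overlap for every gene except Slamf1, at 3.94 in NOD and 3.16 in B10.

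The second comparison asked where the strains differed in each state. At T0, 2 of the 9 members were lower in NOD than in B10, Slamf1 and Ly9, and none was higher, beside 2.35% of all genes called lower and 3.44% called higher. At T1 only Cd84 was called lower and none higher, beside 1.83% and 1.77% of all genes. In 8 of 9 members the NOD mean was the lower one at T0, the exception being Cd48, and in 8 of 9 at T1, the exception being Slamf1. The share of all genes with a lower NOD mean was not counted, and the members of the main block are neighbours in the genome. Cd244a, a SLAM family gene next to that block, is outside the list. It was higher in NOD by 0.61 at T0 (adjusted p = 0.0102) and by 0.35 at T1 (adjusted p = 0.258). With a minimum change of 1.5-fold as the hypothesis tested, no member was called in either state. Without both B10 arrays of replicate 3, which leaves 1 B10 T1 array, the T0 difference was -0.62 for Slamf6 and -0.48 for Cd84. The T1 difference of Slamf6 was then -1.07. The median difference over the members was -0.41 at T0 and -0.24 at T1, beside -0.01 and 0.01 over all genes. Over the 7 CD4 T cell markers the median was also below 0, at -0.14 at T0 and -0.25 at T1. Whether sequence differences between the strains under the probes move these values was not tested.

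Slamf1 was lower in NOD at T0, at 7.67 ± 0.08 (SD, n = 3) against 8.27 ± 0.06 in B10 (SD, n = 3). The difference was -0.60 ± 0.09 (1.51-fold lower, adjusted p = 0.00157), and it was called in all 10 omissions of a single array, with an adjusted p of at most 0.0118. At T1 Slamf1 read 11.61 ± 0.04 in NOD and 11.43 ± 0.07 in B10 (SD, n = 2 each), a difference of 0.18 (95% interval -0.05 to 0.40, adjusted p = 0.449). The order of its 4 group means was NOD T1, B10 T1, B10 T0 and NOD T0, and of these neighbours NOD T1 and B10 T1 did not differ by the test.

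Ly9 was 9.27 ± 0.02 in NOD and 9.68 ± 0.07 in B10 at T0 (SD, n = 3 each), with no overlap of arrays. The difference of -0.41 ± 0.09 had an adjusted p of 0.0156, and it was between 0.0512 and 0.0854 without NOD T0 replicate 1 or 3 or B10 T0 replicate 1 or 2. At T1 the difference was -0.24 (adjusted p = 0.278).

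Cd84 was 8.04 ± 0.02 in NOD and 8.94 ± 0.44 in B10 at T1 (SD, n = 2 each). The difference was -0.90 ± 0.18 (adjusted p = 0.0159). It was -0.59 without B10 T1 replicate 2, the highest of all Cd84 arrays (adjusted p = 0.127), -0.89 without NOD T1 replicate 3 (adjusted p = 0.0862), and -0.90 over the T1 arrays alone (adjusted p = 0.11) or with array weights (adjusted p = 0.0587), and adjustment over every probe set gave 0.0552. At T0 the arrays did not overlap either, and the difference was -0.48 (adjusted p = 0.0827).

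Slamf6 was lower on every NOD array than on every B10 array of the same state, by -0.52 at T0 (adjusted p = 0.0909) and -0.68 at T1 (adjusted p = 0.084). At T0 the tests of Slamf6, Cd84 and Sh2d1a passed the threshold when only the T0 arrays were fitted (adjusted p = 0.012, 0.0205 and 0.0397) or with array weights (adjusted p = 0.0149, 0.00847 and 0.0393). Leaving out either B10 T1 array also brought the T0 tests of Slamf6 (adjusted p = 0.0106) and Cd84 (0.018) past it, and leaving out either NOD T1 array that of Sh2d1a (0.033). In the other omissions the T0 tests did not pass, with an adjusted p of up to 0.291 for Slamf6, 0.333 for Cd84 and 0.474 for Sh2d1a. Sh2d1a differed by -0.32 at T0 (adjusted p = 0.217) and -0.35 at T1 (adjusted p = 0.29), again with no overlap. At T1, with 2 arrays per group, the highest NOD array (7.43) lay just below the lowest B10 array (7.47). The share of all genes whose arrays did not overlap was not counted. Without B10 T1 replicate 3 the T1 difference of Slamf6 was -1.07 (adjusted p = 0.00355), while without B10 T1 replicate 2 it was -0.30 (adjusted p = 0.475). The T1 difference of Sh2d1a was -0.65 without NOD T1 replicate 2 (adjusted p = 0.0146) and -0.048 without NOD T1 replicate 3 (adjusted p = 0.909). For Slamf7 the differences were -0.23 in each state (adjusted p = 0.307 at T0 and 0.408 at T1), and its T0 arrays did not overlap either. Slamf8, Slamf9 and Cd48 lay between -0.42 and 0.08 at T0 and between -0.24 and -0.09 at T1, with adjusted p from 0.228 to 0.888.

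The strain difference averaged over T0 and T1 was added after these values were seen, as most members had the lower mean in NOD in both states. It rests on the same arrays as the differences above, and those differences prompted it. Its adjusted p-values and omission counts are therefore no separate test of them. Of the 9 members, 3 were called lower in NOD and none higher, beside 4.01% and 4.8% of all genes. The differences were -0.60 ± 0.13 for Slamf6 (adjusted p = 0.0095), -0.33 ± 0.07 for Ly9 (adjusted p = 0.00974) and -0.69 ± 0.11 for Cd84 (adjusted p = 0.00214). Those of Slamf6 and Cd84 were called in 10 of 10 omissions of an array and that of Ly9 in 9 of 10, the exception being the omission of B10 T1 replicate 2 (adjusted p = 0.0595). Sh2d1a stood at -0.33 (adjusted p = 0.0611), Slamf7 at -0.23 (adjusted p = 0.119) and Slamf1, whose differences had opposite signs in the 2 states, at -0.21 (adjusted p = 0.0828).

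**Figure D3:**
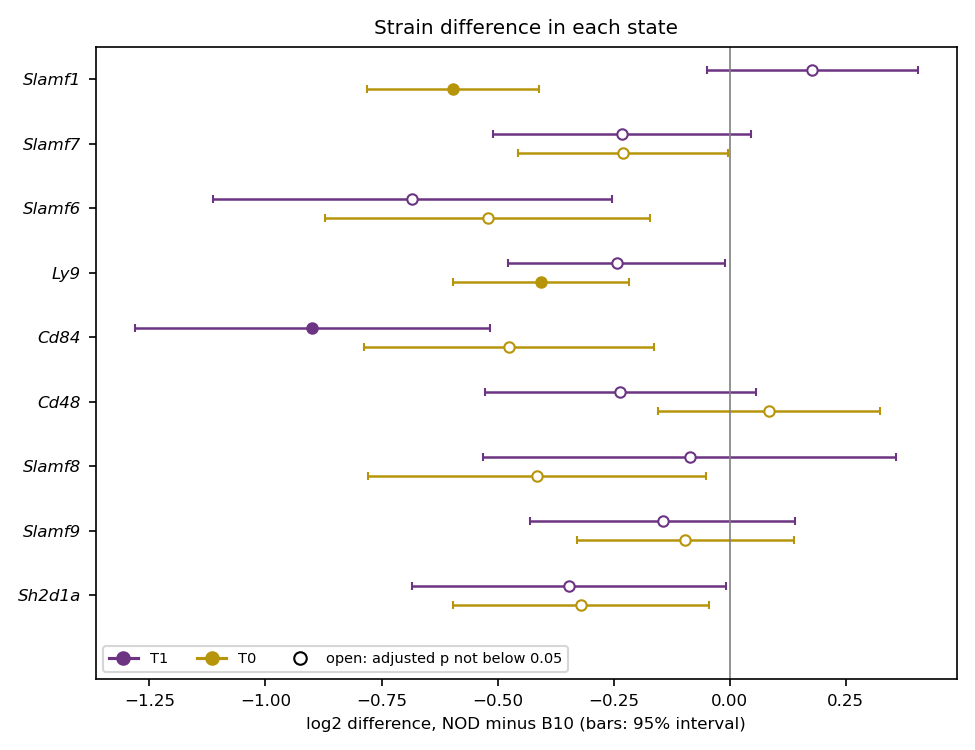
Strain difference (NOD minus B10, log2) of each gene at T1 (purple) and T0 (gold), with 95% intervals from limma and filled points for an adjusted p below 0.05. All but 2 points lie below 0, the exceptions being Slamf1 at T1 (0.18) and Cd48 at T0 (0.08).

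The third comparison, the NOD response minus the B10 response, asked whether stimulation acted differently in the strains. Slamf1 alone among the 9 was called, with a larger rise in NOD, beside 0.0953% of all genes called higher and 0.15% lower. Its value was 0.77 ± 0.14 (95% interval 0.48 to 1.07, adjusted p = 0.0429). It is the sum of a T0 level 0.60 lower in NOD and a T1 level 0.18 higher. The contrast uses the same arrays as the comparisons above. The call ended on omission of any 1 of the 10 arrays, with values of 0.72 to 0.83 and an adjusted p of 0.0543 to 0.135. The other 8 members ranged from -0.42 for Cd84 (adjusted p = 0.607) to 0.33 for Slamf8 (adjusted p = 0.738).

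The neighbourhood on chromosome 1 was then examined. In the RefSeq gene order Ly9, Slamf7, Cd48, Slamf1, Cd84 and Slamf6 lie side by side, with Cd244a, the gene of the CD48 receptor 2B4, next to Ly9. The 10 nearest measured protein-coding genes on each side made 20 in all. At T0 1 of them was called higher in NOD and none lower, beside 3.44% and 2.35% of all genes. At T1 1 was higher and none lower, beside 1.77% and 1.83%. Over these 20 genes the median strain difference was -0.06 at T0 and -0.06 at T1. The 1 called at T0 was Cd244a, at 6.995 in NOD and 6.382 in B10, a difference of 0.61 ± 0.12 (adjusted p = 0.0102) opposite in sign to that of Ly9 beside it. That call ended without NOD T0 replicate 1 or B10 T0 replicate 1, with an adjusted p of up to 0.0577. Averaged over both states Cd244a was 0.48 higher in NOD (adjusted p = 0.00664) and Alyref2, a gene on the same side of the block, 0.39 lower (log2 difference -0.39, adjusted p = 0.035). The gene called at T1 was Casq1, which encodes a calcium-binding protein of muscle, at 0.62 (adjusted p = 0.0159, and up to 0.129 when NOD T1 replicate 3 or B10 T1 replicate 2 was left out). The Casq1 response was also larger in NOD than in B10, by 0.87 (adjusted p = 0.0467), a call made in 0 of 10 omissions of an array, with an adjusted p of up to 0.205.

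With stimulation, 2 of the 20 neighbours rose and 8 fell in NOD, beside 16.1% and 19.5% of all genes. In B10 2 rose and 7 fell, beside 13.7% and 18.1%. With each array shifted to one 75th percentile, 5 rose and 6 fell in NOD and 2 rose and 4 fell in B10. Arhgap30 fell by 1.55 in NOD and by 1.71 in B10, while Pfdn2, a subunit of the prefoldin chaperone, rose by 1.03 and 1.46. Of 20 neighbours of Slamf8, Slamf9 and Sh2d1a, 2 rose and 4 fell in each strain, and with that shift 7 rose and 3 fell in NOD and 2 rose and 3 fell in B10. Atp1a4 and Igsf8 belong to both sets of neighbours, so the fall of Igsf8 in B10 counts in both. Igsf9, Tagln2, Cfap45 and Vsig8, which lie between Slamf9 and Slamf8, were left out of the count and were not called in any contrast. Kcnj10, a potassium channel gene near Slamf9, was higher in NOD at T0 by 0.88 ± 0.09 (adjusted p = 0.000121), and its response was lower in NOD than in B10 by -1.17 ± 0.14 (adjusted p = 0.00725). Both Kcnj10 calls held in all 10 omissions of an array. No other neighbour of these 3 members was called between the strains.

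**Figure D4:**
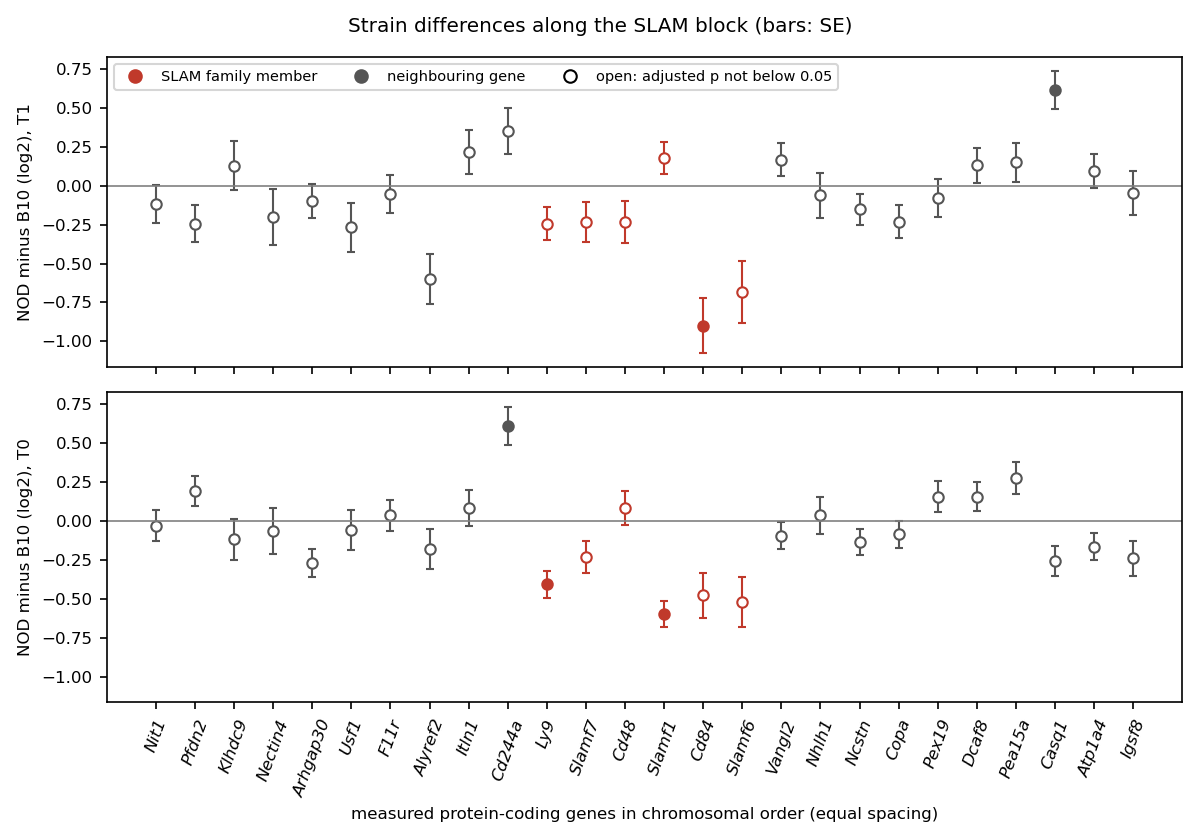
Strain difference (NOD minus B10, log2, bars show SE) of the 6 listed SLAM genes of the main block (red) and 10 measured protein-coding genes on each side (grey) in chromosomal order with equal spacing, at T1 above and T0 below. Filled points have an adjusted p below 0.05. Cd244a, immediately before Ly9, is a SLAM family gene outside the list and is drawn in grey. It is higher in NOD at T0 (0.61), while Ly9 (-0.41) and Slamf1 (-0.60) are lower.

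Partners and signalling molecules of the SLAM receptors formed a list with 15 measured genes. With stimulation 2 rose and 5 fell in each strain. Of all genes 16.1% rose and 19.5% fell in NOD, and 13.7% rose and 18.1% fell in B10. The list's median was -0.21 in NOD and -0.20 in B10, beside 0.08 and 0.03 over all genes. Fyn, the kinase bound by SAP, rose by 0.64 ± 0.09 in NOD (adjusted p = 7.83e-05) and 0.43 ± 0.09 in B10 (adjusted p = 0.00173). Inpp5d, the gene of the phosphatase SHIP-1, fell by 2.68 in NOD (adjusted p = 1.03e-08) and fell by 2.42 in B10 (adjusted p = 1.99e-08). Ptpn6, the gene of SHP-1, fell by 1.19 in NOD (adjusted p = 2.02e-06) and fell by 1.54 in B10 (adjusted p = 2.15e-07). Malt1, a protease of the NF-kB pathway, rose by 1.77 and 1.48, and the guanine nucleotide exchange factor Vav1 fell by 0.85 and 0.84 in NOD and B10.

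The remaining calls of that list with stimulation were those of Cd244a, Prkcq and Zbtb16. Cd244a fell in NOD by 0.52 (adjusted p = 0.00941, and 0.0986 without NOD T1 replicate 2) and changed by -0.26 in B10 (adjusted p = 0.191). Prkcq, the gene of protein kinase C theta, fell in B10 by 0.46 (adjusted p = 0.0118, and 0.158 without B10 T1 replicate 2) and changed by -0.14 in NOD (adjusted p = 0.416). Cd2 and the EAT-2 genes Sh2d1b1 and Sh2d1b2 were not called in any of the 5 contrasts.

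Zbtb16 encodes PLZF, a transcription factor of natural killer T cells, a lineage that depends on SAP. Its mean was 6.42 in NOD T1, against 7.13 in NOD T0, and 7.72 in B10 T1, against 8.46 in B10 T0. It fell with stimulation by 0.71 in NOD and by 0.73 in B10. Between the strains it was lower in NOD by -1.32 ± 0.15 at T0 (adjusted p = 0.000325) and -1.299 ± 0.19 at T1 (adjusted p = 0.0027). All 4 Zbtb16 calls held in each of the 10 omissions of an array. Of 7 natural killer cell markers, 2 were called lower in NOD at T0, beside 2.35% of all genes. They were Klrb1c by -1.22 (adjusted p = 1.15e-05) and Klrd1 by -0.94 (adjusted p = 0.00037). With stimulation Klrb1c changed by -1.43 in B10 and -0.36 in NOD, a difference of 1.08 (adjusted p = 0.0132). The count of these markers called in that contrast was 0 to 1 on omission of an array. Ncr1, Klra8, Eomes, Gzma and Prf1 were not called at T0, with differences from -0.08 for Klra8 to 0.15 for Prf1. None of the 7 was called at T1. The sum of all 7 markers was 308 to 345 in NOD T1, against 413 to 439 in NOD T0, and 322 to 349 in B10 T1, against 504 to 546 in B10 T0. The part of these markers in the Zbtb16 difference was not tested. Malt1 was 0.57 higher in NOD at T1 (adjusted p = 0.0214, and up to 0.0994 when 1 of the T1 arrays was left out).

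Follicular helper genes, counted because these cells need SAP, made a list of 14 that were all measured. In NOD 6 rose and 3 fell, beside 16.1% and 19.5% of all genes, and in B10 7 rose and 2 fell, beside 13.7% and 18.1%. The cytokine gene Il21 rose by 2.16 in NOD and 3.83 in B10, Cd40lg by 2.86 and 2.77, the inhibitory receptor gene Btla by 2.51 and 1.82, and Batf, a factor that pairs with AP-1 proteins, by 2.84 and 2.47. Tnfsf8 and the transcription factor gene Irf4 also rose in both strains, by 2.57 to 2.70. Bcl6, the master regulator of these cells, fell by 0.74 in each strain, and Cxcr5, their follicle-homing receptor, fell by 1.49 in NOD (adjusted p = 3.22e-05) and by 0.62 in B10 (adjusted p = 0.0196, and up to 0.148 when 1 B10 array was left out). Icos, a costimulatory receptor gene, fell by 0.68 in NOD (adjusted p = 0.00181) and changed by 0.11 in B10 (adjusted p = 0.638).

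Between the strains, 3 of the 14 were lower in NOD at T0 and 2 at T1, beside 2.35% and 1.83% of all genes, and none was higher. Il4 was lower in both states (-1.01 at T0, adjusted p = 0.00688, and -2.89 at T1, adjusted p = 3.42e-05). It rose by 2.08 in B10 and changed by 0.20 in NOD (adjusted p = 0.481), and its response was lower in NOD by -1.88 (adjusted p = 0.0216, called in 3 of 10 omissions of an array). Btla (-0.52, adjusted p = 0.00468) and Cd40lg (-0.43, adjusted p = 0.0129, up to 0.0638 on omission of an array) were lower at T0, and Icos was lower at T1 (-0.93, adjusted p = 0.00587, and 0.0718 without B10 T1 replicate 2).

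The genes most like each strongly changing member were those with the smallest root mean square difference over the 10 arrays after centring each gene on its mean. For Slamf1 they were Prrg4 (0.249 log2 units), the cytokine gene Lif (0.277) and Il2ra (0.301), the gene of the interleukin-2 receptor alpha chain. Slamf7 had Shmt1 (0.142), Alcam (0.143) and Cd40lg (0.156), and Slamf6 had Trim12c (0.153), the integrin gene Itgal (0.16) and H2-T10 (0.165). For Sh2d1a they were Igfbp4 (0.0856), Armc7 (0.0907) and Septin1 (0.101). The remaining members spanned less than 1 log2 unit between group means and were not matched.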

How the data were processed

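The authors deposited log2 intensities, made with RMA in Affymetrix Power Tools per the submitters' processing notes. No version or option is given in the sources used here, and the log base was read from the range of the values. Of 35486 probe sets, 21789 have 1 symbol in the platform table, 1621 have several and 12076 have no listed gene. Where a gene had several probe sets, the one with the highest mean was used. Of the resulting 19938 genes, 19856 were found by identifier in the RefSeq table (GRCm38.p6). That table gave gene order and promoters only, as the array file names no build.

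Differences between the 4 groups were estimated in 1 fit to the 10 arrays with limma 3.58.1 in R 4.3.3 (lmFit, eBayes, 6 residual and 6.30 prior degrees of freedom), with 5 contrasts, two-sided tests and Benjamini-Hochberg adjustment over all genes. The procedure was tested on simulated data. Figures were drawn with matplotlib 3.10.9. The members, lists and contrasts were chosen with earlier results of these data known. All 9 members are named whatever their result, and any called member of a list or neighbour may be named. The text names some of these, chosen after their values were seen. Like genes were the 3 nearest, unnamed, olfactory, small RNA and antigen receptor genes left out. Alternatives were other scaling, other probe set choices, a brightness filter, array weights, eBayes with trend and robust settings, fewer arrays, replicate blocks, a minimum change of 1.5-fold and omission of each array.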

Additional observations from a re-analysis of the deposited data

Results flagged for a closer look

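The response of Slamf1 to PMA and ionomycin differed between the strains by the test of the difference itself. The NOD response exceeded the B10 response by 0.77 log2 units (limma, adjusted p = 0.0429), with a rise of 3.94 in NOD and 3.16 in B10. The strains were further apart at T0 (-0.60, NOD minus B10) than at T1 (0.18). The call was made in 4 of 20 alternatives, and in 0 of 10 omissions of an array, while the value stayed between 0.70 and 0.83.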

How the results depend on the processing

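Of the member values recomputed under each alternative, the calls for Slamf1, Slamf6, Slamf7 and Sh2d1a with stimulation held in 21 of 21 in both strains. The cause of each change below was not tested, beyond the fewer arrays or genes of an alternative. With a minimum change of 1.5-fold, 4 members were called with stimulation in NOD, 0 between the strains in either state and 0 in the interaction. Members called at T0 numbered 5 with array weights, 5 with only the T0 arrays, 1 to 4 on omission of an array and 4 without both B10 arrays of replicate 3. For the mean of both states, a different contrast that recomputes neither state, 3 members were called. On omission of an array the T1 difference of Cd84 ran over -1.21 to -0.59. At T1 the number of members called was 0 with every probe set tested, with array weights or with only the T1 arrays. In the interaction it was 0 with the 75th-percentile shift, every probe set, array weights or the fixed replicate block, 0 without B10 replicate 3 in both states and 0 on omission of any array.

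Values that changed sign were not called in any setting, except Cd84 in B10. On omission of an array, the change in B10 ran over -0.11 to 0.17 for Slamf8, -0.27 to 0.11 for Cd48 and -0.056 to 0.57 for Cd84. At T1 the strain difference ran over -0.38 to 0.21 for Slamf8 and -0.29 to 0.0041 for Slamf9. The interaction ran over -0.55 to 0.22 for Slamf6, -0.19 to 0.18 for Slamf7, -0.20 to 0.10 for Slamf9 and -0.32 to 0.27 for Sh2d1a. Without both B10 arrays of replicate 3, the B10 change was -0.06 for Slamf8 and 0.09 for Cd48. The mean of both states, a different contrast, was -0.076 for Cd48 and -0.21 for Slamf1. With the 75th-percentile shift, the interaction was 0.056 for Slamf7, 0.010 for Slamf9 and 0.033 for Sh2d1a. That shift put the median NOD change over all genes at 0.21, beside 0.08, and called 63.2% of 8538 changed genes higher, beside 45.2% of 7085. At T1 it gave 59.6% beside 49.2%, and in the interaction 51.6% beside 38.8%.

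Replicate numbers repeat across states, but the deviations of same-numbered arrays correlated at -0.0145 and 0.219 in NOD and 0.413 and 0.404 in B10, not all above 0.1. The 2 T1 arrays of a strain deviate from their mean by equal and opposite amounts, so these values mirror those of other pairings. T1 replicate 2 correlated at 0.21 with T0 replicate 1 in NOD and at -0.404 with T0 replicate 3 in B10. The values do not settle whether same-numbered arrays are paired. With the fixed replicate block the Slamf1 interaction was 0.77 (adjusted p = 0.0947). That block was run for stimulation and the interaction only, where it changed no other call of a member. The random replicate block (correlation 0.0828), run for all contrasts, changed no call of a member. Slamf8 was below the brightness filter. Counts over all genes moved by over 1.5 times in several settings. At T0 1155 genes were called, against 2316 with array weights, 68 at 1.5-fold and 571 to 1306 on omission. At T1 718 were called, against 292 with array weights, 128 with only the T1 arrays, 38 at 1.5-fold and 184 to 889 on omission. The interaction called 49, against 102 with trend and robust settings, 90 with the fixed block, 31 with array weights or the shift, 4 at 1.5-fold and 13 to 69 on omission. With stimulation 7085 were called in NOD and 6342 in B10, against 1930 and 1993 at 1.5-fold.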
